A study of Mus musculus with 2 samples.

Results

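Cytochrome P450 enzymes are haem proteins that add oxygen to small molecules. Some of them make and break down steroids, bile acids, vitamin D and retinoic acid, and others clear drugs, pollutants and fatty acids, above all in the liver. Most of the former are encoded by genes that stand alone, whereas many of the latter lie in tandem arrays of near-identical copies that arose by gene duplication. CTCF, a DNA-binding protein with a row of zinc fingers, recognises an extended motif and, with cohesin, anchors chromatin loops. Its sites often lie between neighbouring gene groups.

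The members were the protein-coding genes of the GENCODE M21 annotation whose symbol is Cyp, a number, a letter and a number, such as Cyp2c29. There were 98 of them among 21938 protein-coding genes, on 14 chromosomes. Members of 1 family whose neighbours lay at most 200 kb apart on 1 chromosome were called a tandem cluster. This gave 12 clusters with 75 genes, and 23 genes stood alone. The assay was ChIP-seq, the sequencing of DNA recovered with an antibody to CTCF from fixed chromatin, on forebrain of B6NCrl mice on postnatal day 0, in 1 group. Per the labels the tissue was pulverized and pooled from several dissections, sex was not collected, and the 2 libraries, replicates 1 and 2, cite 1 biosample and 1 donor. The spread between them may therefore be technical. Sites are the peak summits of the authors' optimal list, made from both replicates and thresholded on reproducibility. Of its 56470 peaks, 56462 lay on placed chromosomes. A summit in it need not have one within 100 bp in each replicate, as at Cyp26a1 below. Signal values are the authors' own measure of peak strength, on a scale that was not stated, and a value in a replicate is that of its strongest overlapping peak. No test between conditions was possible. The intervals given are 95% intervals that cover counting error only, and neighbouring genes that share sequence are not independent.

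The 10 sequences below show the sites on which the description turns, each 30 bases from the mm10 genome, written 5′ to 3′ on the strand of the motif. Capitals mark the 14 bases matched to the CTCF consensus motif. The first pair are the promoter sites with the closest matches, the next 4 lie near the 3′ ends of Cyp4f genes, the next pair lie past the ends of Cyp4f39 and Cyp4f40, and the last pair stand on either side of the Cyp2c cluster. The capitals lie at chr17:79715733-79715746 (Cyp1b1, minus strand), chr17:34805388-34805401 (Cyp21a1, minus), chr17:32528962-32528975 (Cyp4f17, plus), chr17:32551301-32551314 (Cyp4f16, plus), chr17:32635237-32635250 (Cyp4f37, plus), chr17:32905395-32905408 (Cyp4f14, minus), chr17:32494822-32494835 (past Cyp4f39, minus), chr17:32680599-32680612 (past Cyp4f40, minus), chr19:38982164-38982177 (left of Cyp2c, plus) and chr19:40225615-40225628 (right of Cyp2c, minus).
Cyp1b1 promoter: acgcgtgtCCAGCAGGTGGCAGagttcctg
Cyp21a1 promoter: ctctgcggCCAGAAGAGGGCAGtggaactg
Cyp4f17 end: acccagagCCATCAGAGGGCGCtgcaggac
Cyp4f16 end: acccagagCCATCAGAGGGCGCtgcaggat
Cyp4f37 end: acagaacgCCAGCAGGGGGCGCtagagggc
Cyp4f14 end: accgagagCCAGCAGGGGGCGCtgtgaaat
past Cyp4f39: gcctctgaCCAGCAGAGGGAGCctcttaca
past Cyp4f40: caaactggCCAGCAGAGGGAGCttcttcca
left of Cyp2c: acagccatCCACTAGAGGGCGGgctttgac
right of Cyp2c: acccacagCCAGCAGGTGGCAGtgtaggct

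In the optimal list CTCF was found at the starts of P450 genes that stand alone at a share near that of all genes, and at few of those in tandem clusters. In the authors' more stringent conservative list the share for genes standing alone was 21.7%, against 35.5% of all protein-coding genes. A summit lay within 1 kb of a transcription start site (TSS) at 12 of 98 P450 genes, or 12.2% (Wilson interval 7.15 to 20.2), against 36.8% of all protein-coding genes. Among genes standing alone 9 of 23 had one, or 39.1% (22.2 to 59.2). Among clustered genes 3 of 75 had one, or 4.0% (1.37 to 11.1). The difference of the shares was 35.1 percentage points (Newcombe interval 16.7 to 55.4), which lies above 0. Among the members with little repeated sequence at the TSS it was 20.3 points, with an interval that included 0 (-7.39 to 45.7).

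The P450 groups also differed farther from the TSS. Within 5 kb, 14 of 23 genes standing alone (60.9%) and 7 of 75 clustered genes (9.33%) did, against 52.3% of all protein-coding genes. The difference was 51.5 points (29.6 to 69.2). The median distance from the TSS to the nearest summit was 1870 bp for genes standing alone (range 106 to 31588 bp) and 41264 bp for clustered genes (62 to 576560 bp). The median over all protein-coding genes was 4170 bp. No summit lay within 50 kb of any TSS for 36 clustered genes (48.0%) and for 0 genes standing alone, against 15.1% of all protein-coding genes. Between gene start and end, 17 of 75 clustered genes and 16 of 23 genes standing alone held a summit, against 53.0% of all protein-coding genes.

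Base composition and repeated sequence at the TSS also differed between the P450 groups. The median GC content within 500 bp of the TSS was 47.2% for clustered genes and 53.9% for genes standing alone, and over all protein-coding genes 19.98% of the AT-richer part and 53.7% of the GC-richer part had a site. All protein-coding genes in the GC deciles of the clustered genes had a site at a mean share of 19.98%, and those in the deciles of the genes standing alone at 35.4%. In the AT-richer part, split at the median gene, 2 of 71 clustered genes (2.82%) and 2 of 12 genes standing alone (16.7%) had a site. In the GC-richer part it was 1 of 4 clustered genes (25%) and 7 of 11 standing alone (63.6%). Duplicated DNA was measured as the share of 31-base words that occur once on the placed chromosomes. Within 1 kb of the TSS its median was 85.9% for clustered genes (range 7.85 to 100%) and 99.2% for genes standing alone (65.4 to 100%). Among genes with at least 95% such words, 3 of 20 clustered (15%) and 6 of 17 standing alone (35.3%) had a site. These are the counts behind the difference of 20.3 points. Below 95%, 0 of 55 clustered genes had a site (Wilson upper bound 6.53%, or 5.45% as 3 counts of the total), and 3 of 6 standing alone had one. The peak lists do not show where reads could be placed, so the part of repeated sequence in these counts was not tested.

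**Figure D1:**
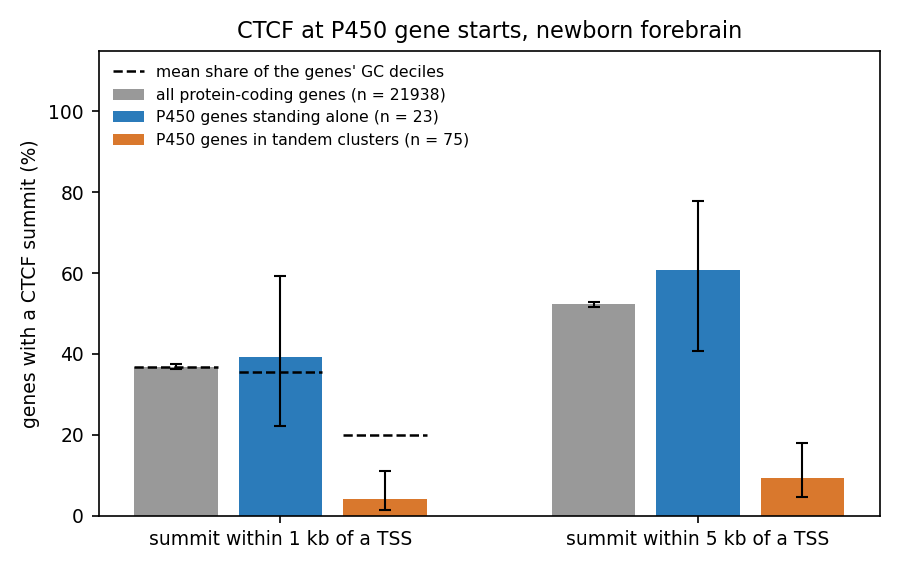
Share of genes with a CTCF summit within 1 kb (left) and 5 kb (right) of a TSS, in percent, with Wilson 95% intervals as bars. At 1 kb, P450 genes in tandem clusters stood at 4.0%, below the 19.98% mean of coding genes in their GC deciles (dashed line), and P450 genes standing alone at 39.1%.

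Vitamin D was the only role group of more than 1 gene in which every member had a promoter site. The count was 3 of 3 (Wilson interval 43.9 to 100%), against 36.8% of all protein-coding genes. With 3 genes, all standing alone, the count describes only these members. Cyp2r1, which adds the hydroxyl group to vitamin D in its first activating step, had a summit 257 bp downstream of a TSS with a signal value of 87.1 in the optimal list, 47.8 in replicate 1 and 39.3 in replicate 2. Cyp24a1, which breaks active vitamin D down, had one 342 bp upstream, in an intron of the neighbouring gene Pfdn4, with 60.3, 34.8 and 22.4 in the same order. Cyp27b1, which makes the active hormone, had a weaker one 596 bp downstream in its own intron, with 32.2, 24.0 and 7.11. The site of Cyp27b1 was far weaker in replicate 2 than in replicate 1. It was absent from the authors' conservative list, the more stringent of their 2 lists thresholded on reproducibility. The sites of the other two were in it.

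Retinoic acid is broken down by the Cyp26 enzymes, which limit the signal in the embryo. Cyp26a1 had a pair of weak summits on either side of its TSS. They lay 148 bp upstream and 62 bp downstream, with signal values of 17.6 and 6.12, and the strongest peak overlapping either had 9.62 in replicate 1 and 14.5 in replicate 2. Within 100 bp of the upstream summit replicate 1 had a peak of 4.25 and replicate 2 that of 14.5, and within 100 bp of the downstream one only replicate 1 had a peak, that of 9.62. Cyp26c1, which lies next to it, and Cyp26b1 had none in the 1 kb window, with the nearest summits 1612 bp and 1870 bp from a TSS. The summit near Cyp26b1, at 311, was stronger than every P450 promoter site.

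In cholesterol and bile acid metabolism 2 of 6 genes (33.3%) had a promoter site, near the 36.8% of all protein-coding genes. Cyp46a1 encodes the enzyme by which the brain disposes of cholesterol. Its site, 355 bp upstream, had a signal value of 37.6 (25.2 in replicate 1 and 22.5 in replicate 2). The replicate 1 peak with a summit within 100 bp had only 7.12, and the 25.2 belongs to an overlapping peak with its summit farther away. Its promoter was the most GC-rich of all P450 promoters, at 69.0%. Cyp39a1, which hydroxylates the product of Cyp46a1, had a summit 331 bp upstream at 23.9 (17.3 and 5.42). That summit lay 38 bp from a TSS of the neighbour Slc25a27, so it cannot be assigned to either gene. Cyp27a1, Cyp7a1, Cyp7b1 and Cyp8b1, enzymes of bile acid synthesis, had their nearest summits 10353 to 31588 bp away.

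Among the steroid hormone genes 1 of 6 had a promoter site (16.7%, Wilson interval 3.01 to 56.4), against 36.8% of all protein-coding genes. Cyp21a1, the 21-hydroxylase of the adrenal cortex, had a summit 812 bp upstream with a signal value of 53.4 (27.3 in replicate 1 and 25.1 in replicate 2), and its motif, shown above, had 1 mismatch. Cyp19a1, the aromatase that makes oestrogens, had its nearest summit outside the window, at 1457 bp (signal value 33.7). Cyp17a1 had a strong one at 2105 bp (292), Cyp11a1 one at 4880 bp (36.9), and the adjacent pair Cyp11b1 and Cyp11b2 none within 16801 bp.

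The group of families 1 to 3, many of whose members break down foreign compounds, had a site at 4 of 59 genes (6.78%). Cyp2r1, which has a site, belongs to family 2 by its symbol but was counted with vitamin D above and not here. The share over all protein-coding genes was 36.8%. Cyp1b1, an enzyme of oestrogen and pollutant metabolism, had the strongest P450 promoter site. Its signal value was 254 in the optimal list, 148 in replicate 1 and 108 in replicate 2, and it exceeded 91.3% of the optimal-list sites within 1 kb of a protein-coding TSS. The summit lay 703 bp upstream, and its motif, shown above, matched the consensus with 0 mismatches. Cyp2u1, a fatty acid hydroxylase of the brain that stands alone, followed with 121 (67.3 and 52.0), at 148 bp downstream in its coding sequence. Cyp1a1, the target gene of the aryl hydrocarbon receptor, had weak summits at 2 annotated TSSs, with 31.3 (11.7 and 19.6) at 333 bp downstream and 21.4 (8.50 and 10.9) at 937 bp upstream. Cyp2j9, an arachidonic acid epoxygenase, also had a pair, with 27.6 (22.5 and 6.64) and 34.7 (26.6 and 6.01). Just outside the window, Cyp2w1 had a summit at 1108 bp (46.6). Cyp2j9 was the only 1 of 67 genes in clusters of 3 or more with a promoter site.

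No gene of family 4, which hydroxylates fatty acids and eicosanoids, had a promoter site. The count was 0 of 20 (Wilson upper bound 16.1%, or 15% as 3 counts of the total), and 18 of the 20 lie in clusters. All protein-coding genes stood at 36.8%. Cyp20a1, an orphan member with no settled substrate, had a weak site 106 bp downstream, with 16.3 (12.0 and 7.43).

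The 15 P450 promoter peaks were mostly weak and few passed the stricter list. Their median signal value was 32.2, against 48.1 over 9355 peaks within 1 kb of a protein-coding TSS, and 5 of the 15 lay above that median. The values were higher in replicate 1 at 11 and in replicate 2 at 4. By that measure, the strongest overlapping peak, the 4 higher in replicate 2 were those of Cyp1a1 and Cyp26a1. By the peak with a summit within 100 bp, that of Cyp46a1 was higher in replicate 2 as well. The CTCF motif, with at most 2 mismatches and wholly within 50 bp of the summit, was found at 8 of 15 (53.3%, Wilson interval 30.1 to 75.2), against 36.0% of all protein-coding promoter peaks and 66.6% of the whole list. The conservative list left 5 promoter sites, those of Cyp24a1, Cyp2u1, Cyp2r1, Cyp21a1 and Cyp1b1. In that list 5 of 23 genes standing alone (21.7%) and 0 of 75 clustered genes had a site, against 35.5% of all protein-coding genes. The count of 0 allows a share of up to 4.0%, as 3 counts of the total. The difference was 21.7 points, against 35.1 in the optimal list.

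**Figure D2:**
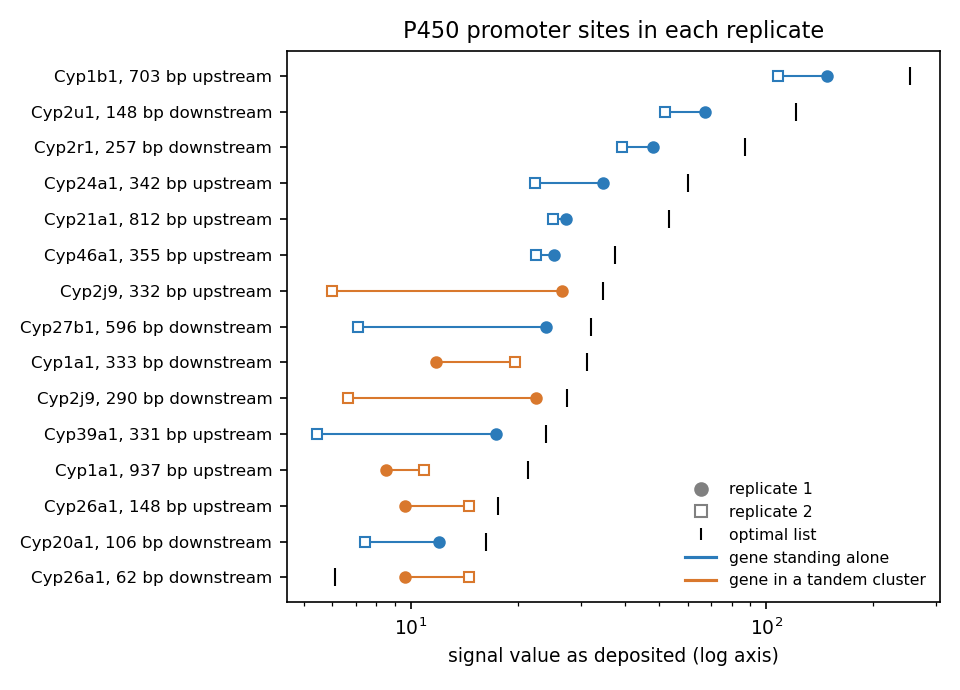
Signal value (as deposited, log axis) of each P450 promoter peak in replicate 1 (filled circles), replicate 2 (open squares) and the optimal list (ticks), ordered by the last. Cyp1b1 leads with 254, and the 6 peaks at clustered genes (orange) lie at 34.7 or below in the optimal list.

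Genes that work with the P450 enzymes had promoter sites at a share close to that of all protein-coding genes. Of 44 electron donors, sensors, coupled enzymes and P450 genes with other symbols, 15 (34.1%, Wilson interval 21.9 to 48.9) had a promoter site. All protein-coding genes stood at 36.8% here too. Of 7 electron donors, Por, the reductase that serves every microsomal P450, had a signal value of 11.3, Cyb5r3 96.3 and Fdxr 60.3. Of 18 nuclear receptors and sensors 7 had a site. They were Nr1h3 with 192, Ahrr with 60.4, Nr1i2 with 32.7, Rxrb with 29.3, Ppara with 26.8, Ahr with 26.1 and Rxrg with 25.4. Vdr, the vitamin D receptor, had none within 1 kb, and its nearest summit was 3778 bp away. Of 15 coupled enzymes 4 (26.7%) had a site, among them Aldh1a2 at 120, Lss at 72.0 and Sqle at 43.1. Of 4 P450 genes named otherwise Cyp2ab1 had one at 19.3.

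Over the 12 clusters together, CTCF summits were sparse inside and dense beside them, though not on every side. Over 4914 kb of cluster there were 39 summits, or 0.794 per 100 kb (exact Poisson interval 0.564 to 1.08). The 50 kb flanks on both sides, 1200 kb in all, held 46 summits, or 3.83 per 100 kb (2.81 to 5.11). The ratio of inside to flank was 0.207 (exact conditional interval 0.132 to 0.324), and the placed chromosomes as a whole held 2.13 per 100 kb. The list called on both replicates together, which includes weak peaks, gave 3.01 peaks per 100 kb inside and 16.3 in the flanks, a ratio of 0.184. Summits were fewer per 100 kb inside than in the flanks at 8 of the 12 clusters and more frequent at 3, and 1 cluster had none in either.

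**Figure D3:**
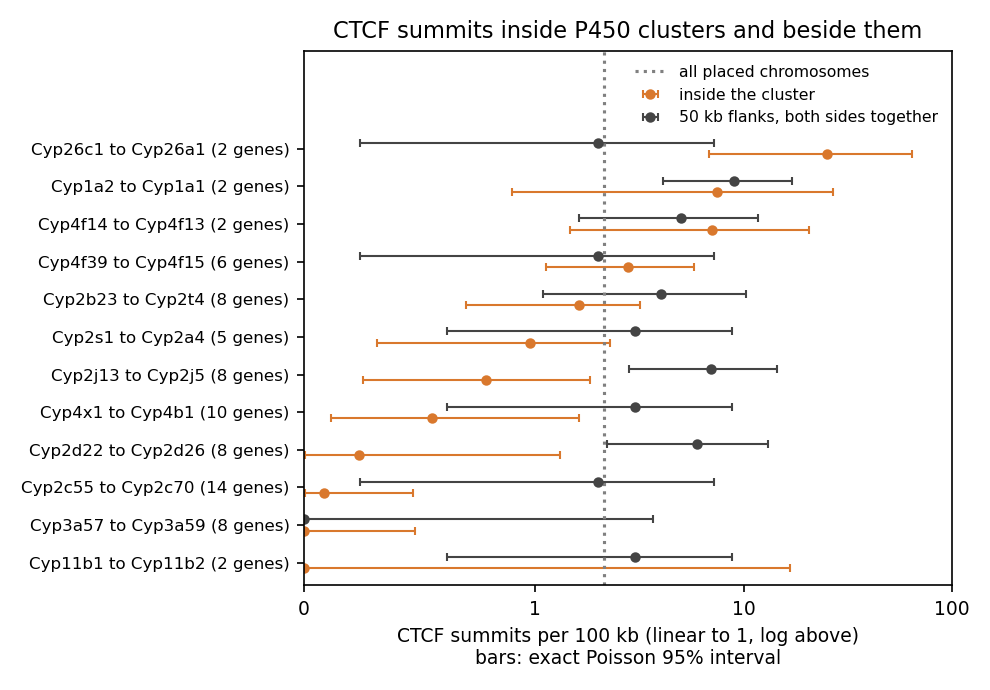
CTCF summits per 100 kb inside each P450 cluster (orange) and in its 50 kb flanks (grey), with exact Poisson 95% intervals, on an axis that is linear to 1 and logarithmic above. The dotted line is the genome level of 2.13, and the intervals of inside and flank do not overlap at the Cyp2d and Cyp2j clusters.

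Of the clusters with 3 or more genes, Cyp3a, Cyp2c and Cyp2d had the lowest densities. The Cyp2c cluster on chromosome 19 (39007019 to 40187333, Cyp2c55 to Cyp2c70) holds 14 genes over 1180 kb, and the human counterparts clear many common drugs. It contained 1 summit, in an intron of Cyp2c55, with a signal value of 18.0 (11.5 in replicate 1 and 5.49 in replicate 2), and then none for 1160 kb. On its left a site of 265 (141 and 125) stood 24.9 kb out, and on its right a site of 254 (137 and 119) stood 38.3 kb out in an intron of Pdlim1. Both motifs, shown above, had 0 mismatches, and they pointed towards each other across the cluster. None of the 14 genes had a promoter site, and the distance to the nearest summit reached 576560 bp.

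The Cyp3a cluster on chromosome 5 (Cyp3a57 to Cyp3a59, 8 genes over 768 kb) had no summit inside, where the upper Poisson bound was 0.480 per 100 kb, and none in either flank. Its nearest summits lay 64.3 kb and 74.3 kb beyond the ends. The Cyp2d cluster on chromosome 15 (8 genes, 424 kb) had 1 summit inside, with 161 (85.0 and 77.0), and 6 in its flanks. The strongest of those, 433, lay 112 bp from a TSS of Ndufa6 on the left, and the strongest on the right was 329. The ratio of inside to flank was 0.0393 (0.000855 to 0.324). The Cyp2j cluster on chromosome 4 (8 genes, 637 kb) had 5 inside and 7 in its flanks (ratio 0.112, 0.0281 to 0.411). Its strongest inside site, 199, lay between genes, and the strongest beside it, 280, lay 32.6 kb past Cyp2j5.

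The Cyp4a array (Cyp4x1 to Cyp4b1, 10 genes) had 3 inside, at most 51.9, and 3 on its left side, of which the strongest was 349. On chromosome 7 the genes from Cyp2s1 to Cyp2a4 had 5 inside and 3 in the flanks, all on the left. Those from Cyp2b23 to Cyp2t4 had 8 inside and 4 in the flanks, all on the right. The flanks facing each other held 0 summits. From there the nearest summit lay 452 kb beyond the first cluster and 761 kb beyond the second. Words that occur once made up 35.7% and 53.1% of these empty flanks, in the same order. In the first cluster, a site between Cyp2s1 and Cyp2b10 reached 241, and Hnrnpul1 was nearest to the strongest flanking site (206). In the second, an intronic site of Cyp2f2 reached 135 and one in Egln2, 1335 bp past Cyp2t4, reached 371. The inside to flank intervals of these 3 clusters included 1.

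The Cyp4f genes departed from this picture. The 6 genes from Cyp4f39 to Cyp4f15 on chromosome 17 (251 kb) had 7 summits inside, or 2.79 per 100 kb, and 2 in the flanks, with a ratio of 1.40 (0.266 to 13.8). The pair Cyp4f14 and Cyp4f13 nearby had 3 inside and 5 in the flanks (ratio 1.42, 0.220 to 7.28). The strongest site inside any cluster, 316, lay in an exon annotated as untranslated at the end of Cyp4f37. The other pairs were short. Cyp1a2 and Cyp1a1 had 2 inside and 9 in the flanks, where an intronic site of Csk reached 440 and one of Edc3 reached 339. Cyp11b1 and Cyp11b2 had 0 inside and 3 in the flanks, of which the strongest, 311, lay in 2010109I03Rik. Cyp26c1 and Cyp26a1 had 4 inside, led by 74.2 in a coding exon of Cyp26c1, and 2 in the flanks, of which the stronger was 242. Its ratio of 12.5 (1.80 to 139) was the only one whose interval lay wholly above 1. The 4 summits inside included overlapping peaks at the Cyp26a1 TSS (17.6 and 6.12), both absent from the conservative list.

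**Figure D4:**
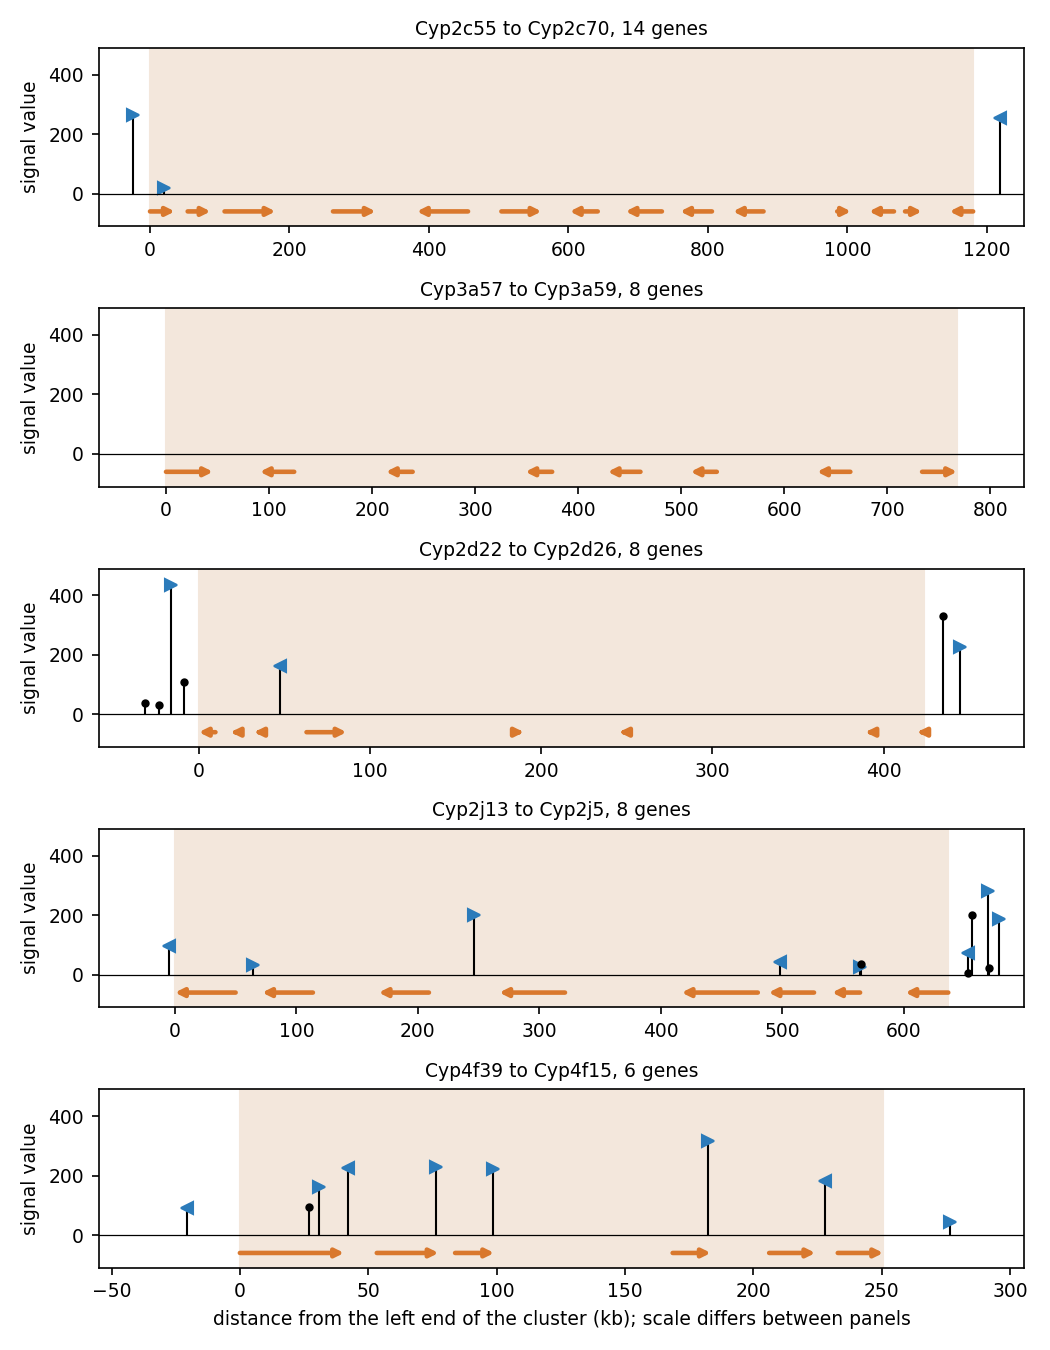
The 5 clusters are drawn in kb from their left end (shaded, scale differs between panels), with each gene as an orange arrow in its direction and each CTCF summit as a line whose height is its signal value. Blue triangles point along the CTCF motif and black dots have none. The Cyp2c and Cyp3a panels are almost empty, while the Cyp4f panel has 7 summits inside.

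Several Cyp4f sites lay near the ends of genes. Within 2 kb of the 3′ end, a window chosen after the values were seen, a summit was found at 6 of 9 Cyp4f genes and at 6 of the other 89 P450 genes, against 17.5% of all protein-coding genes. No Cyp4f gene had one within 1 kb of its start, although Cyp4f39 had 2 in its introns (93.8 and 163) and Cyp4f13 had 2 weak intronic ones (21.1 and 9.17), the nearer 2573 bp from its TSS. The sites in Cyp4f17 (228 in the optimal list, 120 in replicate 1, 106 in replicate 2), Cyp4f16 (221, 111 and 106), Cyp4f37 (316, 177 and 145) and Cyp4f14 (132, 68.9 and 61.2) all lay in untranslated exons, 337 to 1175 bp before the gene end. All 4 of these motifs ran in the direction of the gene. Of those past a Cyp4f gene end and within 2 kb of it, the motifs at Cyp4f39 and Cyp4f14 ran against the gene. That at Cyp4f18 ran with it. Over all P450 summits near a 3′ end, 7 motifs ran with the gene and 6 against it. Summits past the gene end were found at Cyp4f39 (227), Cyp4f18 (45.2) and again Cyp4f14 (68.1). A further site of 181, past Cyp4f40 but beyond the 2 kb window, held the same 14 letters as the site past Cyp4f39. Outside the subfamily, Cyp2w1 had 278 and 131, Cyp46a1 353, Cyp2t4 371, Cyp2f2 61.5, Cyp3a13 44.5 and Cyp24a1 29.1. Of the 14 summits within 2 kb of a P450 3′ end, 13 had a motif, against 66.6% of the whole optimal list. The conservative list held all 14, but it is nearly as long as the optimal list, with 54771 against 56462 peaks on placed chromosomes.

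Duplicated copies of a site were compared to see whether the copies were also bound, in a search added after the data were seen. Windows of 60 bases around the 29 motif-bearing summits inside clusters were compared without gaps with the clusters of the same family on the chromosome and their flanks, and 6 had a copy with at least 80% identity. The Cyp4f16 and Cyp4f17 windows were 95% identical, their motifs were the same letter for letter, and both were strong sites in both replicates. The site beside Cyp2d10 had a 95% identical copy in an intron of Cyp2d9 with the same motif. That copy had no optimal-list summit, and its peak in the list called on both replicates had a signal value of 17.0 (8.69 and 5.70), against 161 at the site beside Cyp2d10. An intronic site of Cyp2b19 (30.8) had 5 copies in other Cyp2b genes or between them, 4 of them with the same motif, and none had an optimal-list summit. In the joint list the copy in Cyp2b9 had a peak of 11.01 and one between genes, nearest to Cyp2b10, had a peak of 7.12. The site nearest to Cyp4a12a (51.9) had a 98.3% identical copy in an intron of Cyp4a32 with the same motif. That copy, of which 88.3% was repeat-masked, had no peak in the optimal or joint list. Over all 12 copy windows, 2 were bound, namely Cyp4f16 and Cyp4f17 themselves.

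Counted over all matches, in repeated sequence or not, the motif was less depleted in the clusters than the summits were. Matches with at most 1 mismatch numbered 142 inside (2.89 per 100 kb) and 55 in the flanks (4.58 per 100 kb), a ratio of 0.630 (0.459 to 0.877), beside 2.53 over the genome. A summit lay within 50 bp of 16 matches inside (11.3%, Wilson interval 7.06 to 17.5) and of 20 in the flanks (36.4%, 24.9 to 49.6). With the looser limit of at most 2 mismatches, 29 of 39 summits inside clusters (74.4%) and 31 of 46 in the flanks (67.4%) had the motif. The matches with at most 1 mismatch were then split by their surrounding 31-base words. Where these words all occurred once, 12 of 33 inside (36.4%, 22.2 to 53.4) and 18 of 39 in the flanks (46.2%, 31.6 to 61.4) had a summit. Among matches with a repeated word, 4 of 109 inside (3.67%) and 2 of 16 in the flanks (12.5%) had one. The intervals of inside and flank overlapped in each of these classes, and the 2 classes were chosen after the data were seen. Matches whose words all occurred once numbered 33 inside and 39 in the flanks, beside 39 and 46 summits. Such matches were therefore depleted about as much as the summits. Matches in repeat-masked sequence made up 89 of 142 inside and 17 of 55 in the flanks.

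**Figure D5:**
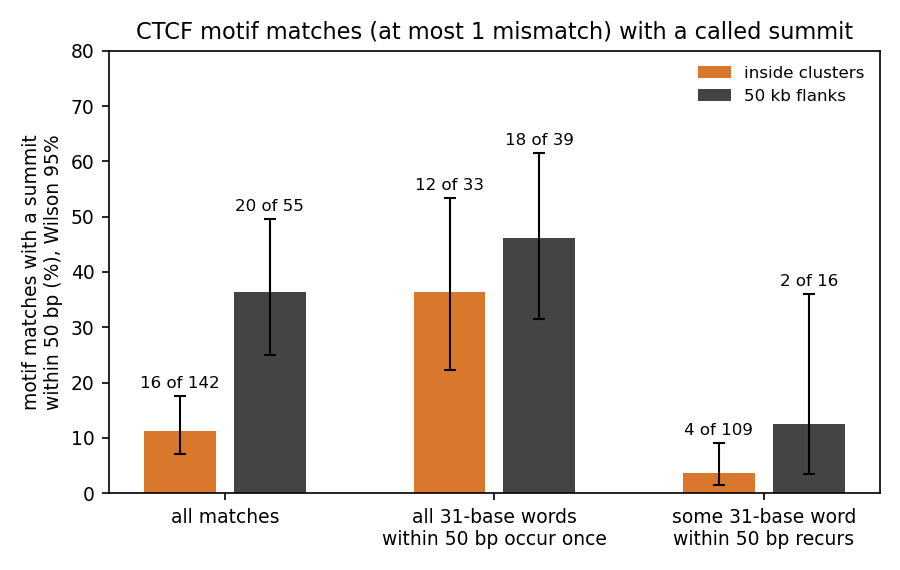
Percent of CTCF motif matches (at most 1 mismatch) with a summit within 50 bp, inside P450 clusters and in their flanks, with Wilson 95% intervals. The separation of 11.3% from 36.4% over all matches narrows to 36.4% and 46.2% where all neighbouring 31-base words occur once.

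Repeated sequence was more common inside the clusters than beside them. Words of 31 bases that occur once made up 60.2% of the cluster insides, 78.7% of the flanks and 80.6% of sampled genome positions. The share was 50.2% in the Cyp3a cluster, 54.1% in Cyp2c, 55.2% in the Cyp4a array, 65.4% in Cyp2d, 88.4% in the Cyp11b pair, which had no summit inside, and 99.1% between Cyp26c1 and Cyp26a1. Only 1 of 32 motif matches in the Cyp2c cluster and 3 of 23 in the Cyp3a cluster lay wholly among such words, and none of the 55 matches in these 2 clusters had a summit. When cluster and flank were measured in single-occurrence words in place of bases, the densities were 1.32 and 4.87 per 100 kb and the ratio 0.271 (0.172 to 0.424). The interval stayed below 1. Repeat-masked bases made up 50.9% of the insides, 38.8% of the flanks and 36.4% of the genome.

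The strands of the motifs on either side were convergent at few clusters. A motif-bearing summit was found in both flanks of 8 clusters. The nearest pair pointed towards each other at 2 of them, Cyp2c and Cyp4f14 with Cyp4f13, away from each other at 1, Cyp4f39 to Cyp4f15, and in 1 direction at 5.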

How the data were processed

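Members and lists were chosen with earlier results of these data known. The deposited lists were peaks on mm10, per the labels. They were 1 list per replicate, 1 joint list, and 2 thresholded on reproducibility, the optimal and the conservative. Read depth, aligner and peak caller were not given in the sources used here, and an experiment named as a possible control was not used. Each deposited list gave a signal value, the authors' own and of unstated scale, used to rank and describe peaks. Summits were set from the offset in the deposited lists and counted on placed chromosomes. The deposited score and −log10 q-value columns were not used.

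Genes, TSSs and strands came from GENCODE M21, sequence and repeat masking from RefSeq GRCm38.p6. A site is a summit within 1 kb of any annotated TSS. Intervals were Wilson (shares), Newcombe (differences), exact Poisson (densities) and exact conditional (ratios). A cluster ran from its lowest gene start to its highest gene end, with flanks of 50 kb. The 14-base CTCF motif was sought on either strand, with at most 2 mismatches at summits and 1 elsewhere. Named were every member with a site, every cluster with its counts, the strongest summit inside and in each flank, and partner genes with a site, of which 1 is not reported here. Other sites were named after their values were seen. Word uniqueness, copies, 3′ ends and motif directions were chosen after seeing the data. Alternatives changed the peak list (conservative, stronger peaks only, 1 replicate), windows, gaps, flanks, motif limits and gene choices. The counting steps were tested on simulated data. Work used Python 3.11.15, numpy 2.4.6, pandas 2.3.3, scipy 1.17.1, pysam 0.24.0 and matplotlib 3.10.9.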

Additional observations from a re-analysis of the deposited data

How the results depend on the processing

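No paired analysis was possible because the series has 1 group. Of 47 recomputed values, 35 stayed within their interval or spread, which was that between replicates, or over genes for the TSS distance. No direction reversed for the difference of shares or the ratio of densities, the only results whose direction was checked. The share of P450 genes with a site, 12.2%, was 5.10% in the conservative list (35.5% of all protein-coding genes), 3.06% with optimal-list peaks at or above the median signal value only (16.9% of all), 21.4% within 5 kb (52.3% of all) and 24.3% among members with at least 95% single-occurrence words at the TSS, an alternative added after seeing the data. With 1 replicate alone it was 8.16 to 10.2%, the difference between genes alone and clustered 23.4 to 37.8 points, and the ratio of inside to flank 0.168 to 0.183. That difference was 13.04 points with those stronger peaks, where 0 clustered genes had a site, and that ratio 0.130. It was 0.321 with gaps of up to 100 kb. The motif was at 68.1% of 94 summits in and around P450 genes, 40.4% with at most 1 mismatch and 86.2% with at most 3. The median percentile of the promoter sites among coding promoter sites was 31.5, and 29.3 to 43.6 by 1 replicate's values. The longest stretch without a summit, in the Cyp2c cluster, was 1160 kb, and 1180 kb in the conservative list and among as many of the strongest peaks of each replicate, none of which hold its only inside summit. The cause of these shifts was not tested. Without the Cyp2c and Cyp3a clusters and the pairs, the ratio was 0.243. Read depth is unknown, so absence of a summit is absence of a call.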
